A study of Drosophila melanogaster with 8 samples.

Results

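Adult testes labelled wild type were set against wild-type second instar larvae, to describe the transcript programme of each: the genes listed in only one of them, the gene copies each uses, and how its transcriptome is divided. The data are FPKM (fragments per kilobase of transcript, scaled to the mapped fragments of the library, so that levels can be compared between genes per length) from 2 libraries of each tissue, 4 of the 8 libraries in the series. The genes are those whose FlyBase identifier stands in both the testis table and the larval table, which gave 14225 of the 18289 entries in either table. Removal of 10 mitochondrial genes left 14215. Each library was then rescaled to a sum of 1000000 over these genes, and every level below is in this rescaled FPKM. A share of the RNA of a tissue means a share of this sum. It is scaled by transcript length and is not a share of RNA mass.

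The testes were dissected from adult males whose title reads WT but whose genotype label is bam>tgs1;tgs1hypo. The tgs1hypo background is the combination moi CB0/tgs1 15-11, and a tgs1 cDNA was driven in its germline by bam-gal4, so these testes come from rescued mutants, which the sample descriptions say stand in for wild type. They are not the w1118 stock that the study otherwise used as wild type. The larvae carry the tgs1 2-4 allele, a line from the Cas9 mutagenesis in which the reading frames of tgs1 and moi are intact. About 100 pairs of testes or 80 larvae were pooled for a library, flies were kept at 25 °C, and poly(A) RNA was sequenced. The sex of the larvae is not given in the sources used here. Tissue, stage, genotype and table differ together between the groups and cannot be told apart, and the tables were made separately, so no p-value was computed between them. With 2 libraries against 2, an exact permutation test of one gene could not go below 0.333 (two-sided).

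The Drosophila testis holds every stage of sperm formation. Spermatogonia divide, spermatocytes grow and transcribe most of what the later stages need, and spermatids then build a long tail, fuse their mitochondria and replace histones with protamine-like proteins while they transcribe little. Spermatocyte transcription depends on testis versions of general factors (tTAFs) and on the testis meiotic arrest complex (tMAC). A second instar larva is a whole feeding animal, with gut, fat body, body wall muscle, epidermis that makes cuticle, neurons and blood cells, and with small immature gonads. A whole larva mixes all of these, so that fewer cells of a type and less RNA per cell cannot be told apart in its values.

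Of the 14215 genes, 12204 had a mean of at least 1 over the 4 libraries. A gene was called higher in one tissue when its lowest library there exceeded the highest library of the other by at least 4-fold, on the scale of log2(level + 1). By this rule 3106 genes (25.5% of those that passed) were higher in testes and 1721 genes (14.1%) were higher in larvae. The 2 libraries of a tissue differed by 4-fold or more, on the same scale, for 2 genes in testes and 268 genes in larvae. The median fold between replicates was 1.11 in testes and 1.25 in larvae. Without the 4-fold limit, both testis libraries were above both larval libraries for 5669 genes (46.5%), both larval libraries were above both testis libraries for 5320 genes (43.6%), and the libraries overlapped for the other 1215. A gene that passes the filter through a single tissue is bound to differ, so these counts describe the programmes and measure no error rate. Across genes, the correlation of the log2 levels was 0.994 between the testis libraries and 0.954 between the larval libraries, and between 0.0485 and 0.0693 from a testis library to a larval library. Genes are not independent replicates, and these correlations are descriptions.

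**Figure D1:**
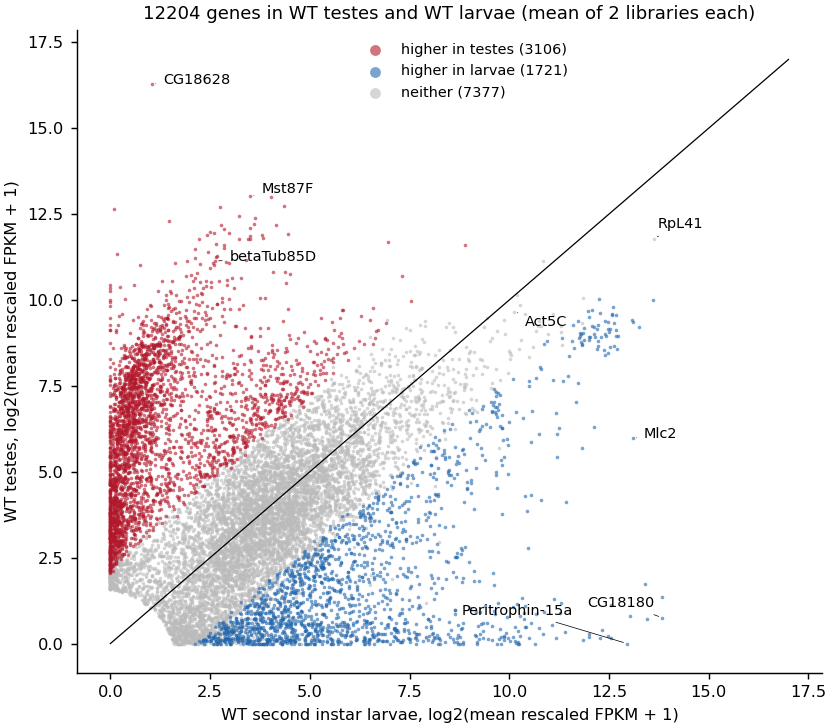
Mean level of each of the 12204 genes that passed the filter, in WT testes (vertical axis) and WT second instar larvae (horizontal axis), both as log2(mean rescaled FPKM + 1) over 2 libraries. Red points are the 3106 genes called higher in testes, blue points the 1721 called higher in larvae, grey points the rest, and the line marks equal levels; CG18628 stands alone at the top and Peritrophin-15a lies on the floor of the testis axis.

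More genes were called higher in testes than in larvae under all 6 scalings tried, but the size of the excess depended on the scaling. The deposited values of the shared genes sum to 687719 and 720446 FPKM in testes, against 397828 and 439986 FPKM in larvae. In the FPKM as deposited, 3417 genes were higher in testes and 1015 higher in larvae, so that 77.1% of the calls fell to testes, against 64.3% after rescaling, and the median difference of all genes moved up by 0.61 on the log2 scale. With ribosomal protein genes left out of the sum, a scaling chosen after the data were seen, 2911 genes were higher in testes and 2304 higher in larvae, or 55.8% to testes, and the median difference of all genes was -0.38. The median difference after rescaling was 0.07. Shared genes held 91.2% and 91.3% of the nuclear FPKM of the testis libraries, against 86.2% and 85.4% of the larval libraries. The rest lies in genes whose identifier stands in only one table, 78 of which could be matched by name, and in 1167 assembled loci of the larval table. Mitochondrial genes, left out here, held 4.86% and 4.45% of all FPKM in the testis table and 28.7% and 14.7% in the larval table.

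The transcriptomes were divided very differently. In testes 1 gene, CG18628, took 7.98% ± 0.58 of the rescaled FPKM (SD, n = 2), and the 10 highest genes took 13.7% ± 0.76. The 100 highest genes held 32.7% ± 1.28 in testes and 49.7% ± 0.56 in larvae, and the 500 highest held 55.03% ± 1.13 in testes and 74.8% ± 0.89 in larvae. The testis and larval libraries did not overlap in either share. The number of genes at 1 or more was 10891 and 10798 in testes, against 10315 and 9866 in larvae. Only 3 genes stood among the 100 highest of both tissues: RpL41, RpS29 and Hsc70-4, a constitutive heat shock cognate chaperone. Of the 100 highest testis genes 95 were called higher in testes, and of the 100 highest larval genes 92 were called higher in larvae.

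The genes called higher in testes made up 73.8% ± 1.68 of the testis RNA measured and 1.199% ± 0.089 of the larval RNA. Those called higher in larvae made up 4.77% ± 0.47 of the testis RNA and 71.4% ± 1.60 of the larval RNA. These shares follow in part from the call itself and are given as sizes. Cytoplasmic ribosomal protein genes held 4.22% ± 0.31 in testes and 32.4% ± 2.41 in larvae, and 2 of the 100 highest testis genes and 62 of the 100 highest larval genes were of this class. Genes that carry only a CG or CR number, and so have no functional name, held 53.6% ± 1.22 in testes and 22.1% ± 0.68 in larvae. Those whose name begins with CG or CR, without a prefix such as lncRNA, were 53 of the 100 highest in testes and 8 in larvae.

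**Figure D2:**
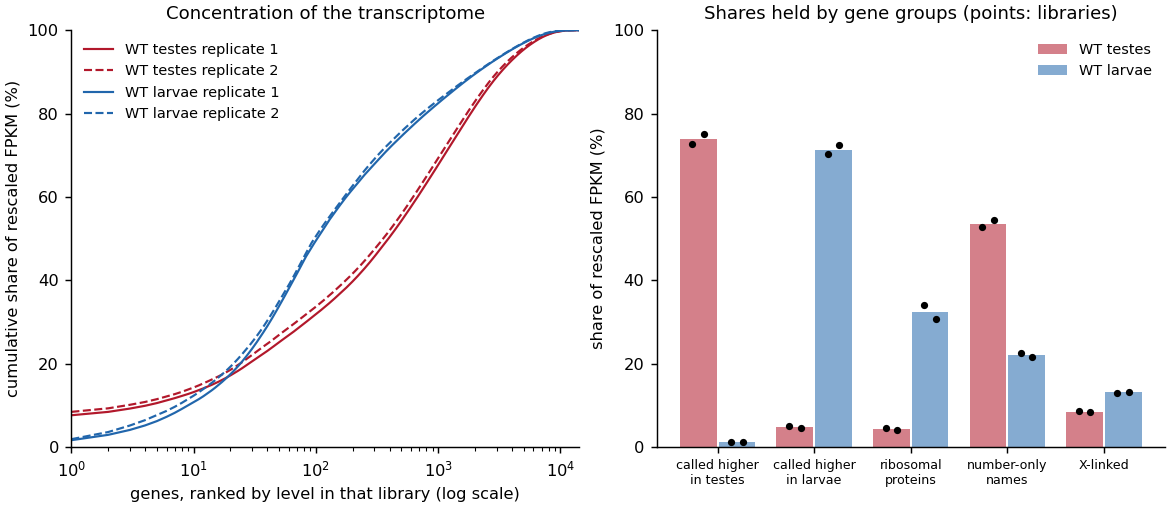
Left, the cumulative share of rescaled FPKM (%) against the number of genes, ranked within each library (log axis), for the 2 WT testis libraries (red) and the 2 WT larval libraries (blue). Right, the share held by 5 gene groups, with bars for the mean of 2 libraries and points for each library; ribosomal protein genes stand at 4.22% in testes and 32.4% in larvae.

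The 10 highest testis genes were CG18628, Mst87F, Mst84Da, Mst84Db, CG46059, Mst57Da, CG17376, CG34168, CG30430 and CG10252. CG18628, on chr3L:10639740-10640136 (plus strand, BDGP6), had 75770.2 and 83911 in testes, against 1.004 and 1.13 in larvae. Its testis level was more than that of any other gene in either tissue. Mst87F (chr3R:13827151-13828008, minus strand), a male-specific cysteine- and glycine-rich protein of the sperm tail, had 8123 and 8505 in testes, against 15.8 and 4.95 in larvae. Mst84Da (chr3R:7365850-7366262, plus strand), from the same protein family, had 7879.9 and 8395 in testes, against 21.7 and 8.63 in larvae. In both genes larval replicate 1 was the higher of the larval libraries and still lay far below the testis libraries. The genes CG46059, CG17376 and CG34168, all on arm 2L, lay between 5251 and 6731 in the testis libraries, against 2.33 to 14.7 in the larval libraries.

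Sperm tail and post-meiotic spermatid genes were the group that stood furthest toward the testis among the germline lists. Of 39 that could be measured, 38 were called higher in testes and 0 higher in larvae, and their median log2 difference was 7.82, against 0.07 over all genes. Together they summed to 76044 and 79112 in testes, or 7.76% of the RNA, against 284 and 164 in larvae. Mst57Da, the fourth highest of them, is named for male-specific transcripts and is known as an accessory gland gene, so its place on this list rests on its name. The sum of the list includes Mst57Da, at 6338 and 6406 in testes. loopin-1, a leucyl aminopeptidase of sperm mitochondria, had 4287 and 4332 in testes, against 8.10 and 4.38 in larvae. dj (don juan), a basic protein of spermatid nuclei and tails, had 1357 and 1555 in testes, against 5.96 and 1.46 in larvae. The S-Lap genes encode a family of sperm leucyl aminopeptidases, and S-Lap7 had 3945 and 3925 in testes, against 9.45 and 4.22 in larvae. The member without a call was oys, a lysophospholipid acyltransferase, with 116 and 106 in testes against 35.6 and 49.5 in larvae.

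Most genes listed for the repackaging of sperm chromatin showed the same pattern. Of 10 measured, 8 were called higher in testes and 1 higher in larvae, with a median log2 difference of 7.22. Mst77F, a histone-like protein of sperm nuclei that stands on both lists, had 2452 and 2464 in testes, against 7.70 and 2.74 in larvae. It has near-identical copies on the Y, and how reads of such copies were divided is not given in the sources used here. ProtB, a protamine, had 946 and 1007 in testes, against 6.18 and 1.64 in larvae. The transition protein gene Tpl94D had 352 and 363 in testes, against 1.36 and 1.24 in larvae. In each of these genes the testis libraries lay close together, and the larval levels were all under 10. The list entry called higher in larvae was thw, with 0.586 and 0.776 in testes against 18.0 and 19.7 in larvae. A role of thw in sperm chromatin is not given in the sources used here.

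Spermatids assemble a motile axoneme from dedicated tubulins and dynein heavy chains. betaTub85D, the testis beta-tubulin (chr3R:9408383-9410282, minus strand), had 2223 and 2260.2 in testes, against 6.52 and 3.80 in larvae. Of 14 axonemal dynein, tubulin and ciliary genes that passed the filter, 12 were called higher in testes and 2 higher in larvae. Those higher in larvae were betaTub97EF, a beta-tubulin of somatic tissues, with 10.2 and 8.80 in testes against 123 and 168 in larvae, and rempA, which acts in intraflagellar transport, with 6.14 and 5.36 in testes against 30.3 and 37.2 in larvae. Another 4 of the 18 joined members did not reach the filter. Dnah3, a dynein heavy chain, had 61.8 and 66.6 in testes, against 0.0499 and 0.0171 in larvae.

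The Y chromosome of Drosophila carries fertility genes that are transcribed in spermatocytes, some of them as loops with giant introns. Among all Y-linked genes joined, 24 of 53 passed the filter, and 21 of these (87.5%) were called higher in testes and 0 higher in larvae. A Y-linked gene that is low in larvae could pass the filter only through the testes, so this share is a description. The dynein heavy chain gene kl-5 had 12.4 and 12.9 in testes and was listed at 0 in both larval libraries. kl-3, which encodes another such chain and spans chrY:336381-563165 (plus strand), had 5.66 and 5.77 in testes, against 0.00318 and 0 in larvae. ARY had 41.1 and 46.6 in testes and was listed at 0 in larvae. PRY, the member of the Y list without a call, had 2.28 and 2.04 in testes and was also listed at 0 in larvae. Y-linked genes as a whole held 0.0717% of the testis RNA and 0.000531% of the larval RNA.

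The regulators that run the spermatocyte programme were expressed at modest levels. Of 16 measured, 12 were called higher in testes and 0 higher in larvae, with a median log2 difference of 3.73, and their sum was 1213 and 1148 in testes against 62.5 and 57.9 in larvae. can, the tTAF version of Taf5, had 29.2 and 27.7 in testes, against 0.194 and 0.368 in larvae. aly, a tMAC subunit, had 20.5 and 17.8 in testes, against 0.636 and 0.406 in larvae. bol (boule), an RNA-binding protein needed for meiotic entry, was far more abundant, with 574 and 588 in testes against 10.8 and 7.92 in larvae. The 4 without a call were comr and mia, which are testis regulators, and mip40 and thoc5, which also act in other cells. comr had 6.158 and 4.03 in testes against 0.311 and 0.149 in larvae, and came within 0.06 of the log2 limit of 2, at 1.94.

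Genes of the early germline and of its somatic partners were less distinct. Over all genes 25.5% were called higher in testes and 14.1% higher in larvae. Of 16 germline stem cell and spermatogonial genes that passed, 6 were called higher in testes, 1 was higher in larvae and 9 had no call. bgcn, which works with bam to end the spermatogonial divisions, had 37.5 and 34.8 in testes, against 0.254 and 0.357 in larvae. bam itself, whose promoter drives the rescue construct, had 4.54 and 4.55 in testes against 0.756 and 0.649 in larvae and did not pass the limit. The member called higher in larvae was ovo, a transcription factor of the germline that is also made in the epidermis, with 0.429 and 0.409 in testes against 11.7 and 5.38 in larvae. Of 13 cyst and hub cell genes that passed, 2 were called higher in testes, upd1 and eya, and 1 was higher in larvae, ImpL2, which is no more than the shares over all genes would give. upd1, the ligand made by hub cells, had 13.2 and 12.7 in testes, against 1.14 and 0.413 in larvae. The cyst cell factor tj (traffic jam) had 1.18 and 1.06 in testes against 0.618 and 0.749 in larvae, so the defining marker of early cyst cells was near the floor in the testis libraries.

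Transcripts of the accessory gland, a neighbouring male organ that makes seminal fluid, were abundant in the testis libraries. Of 16 accessory gland and ejaculatory duct genes joined, 14 passed the filter, and all 14 were called higher in testes, with a median log2 difference of 9.14. A gene low in larvae can pass the filter only through the testes, so this count is a description. The 16 joined genes summed to 11043 and 11202 in testes, or 1.11% of the RNA, against 14.5 and 14.3 in larvae. This sum leaves out Mst57Da, which stood at 6338 and 6406 in testes. It also lacks 10 of the 26 listed genes, which were not joined. Acp95EF had 2289.6 and 2847 in testes, against 0.238 and 0 in larvae. Acp53C14b had 1517 and 1251 in testes and was listed at 0 in both larval libraries. The duct products Dup99B and Est-6 were present too, at 630.3 and 846 in testes for Dup99B and at 373 and 372 for Est-6, against at most 0.231 and 8.95 in larvae. Ebp, a defining gene of the ejaculatory bulb, stood at 0.704 and 0.504 in testes and 0.574 and 0.156 in larvae. Acp95EF, Acp53C14b, Mst57Dc, Acp63F and Mst57Da account for 5 of the 10 largest differences toward the testis. How far other genes called higher in testes came from this organ was not tested. The testis libraries also held Obp44a, an odorant-binding protein gene, at 3246 and 3321, against 135 and 111 in larvae.

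A set of 222 genes (1.56% of the 14215) was listed at 0 in both larval libraries and had at least 5 in both testis libraries. The 5 highest were Acp53C14b, lncRNA:CR43684, msopa, Mst57Dc and Acp63F, and 3 of these are on the accessory gland list. lncRNA:CR43684 had 1237 and 1353 in testes. All 222 together held 1.65% ± 0.024 of the testis RNA, so genes listed at 0 in larvae were a small part of the testis programme by rescaled FPKM. A wider set of 1620 genes called higher in testes lay under 1 in both larval libraries. Without larval replicate 1, 477 genes were at 0 in larvae, and without replicate 2 the number was 332.

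Long non-coding RNAs were a large class among the testis calls. Of 1015 genes annotated as ncRNA that passed, 483 (47.6%, beside 25.5% of all genes) were higher in testes and 77 (7.59%, beside 14.1%) higher in larvae. Among the 383 that overlap no other gene, 225 (58.7%) were higher in testes and 7 (1.83%) higher in larvae. lncRNA:CR9284 had 1368 and 1365 in testes, against 6.10 and 2.38 in larvae. Of the 10 highest testis ncRNAs that overlap no gene, 6 lie on the X, a count made after the values were seen. The X share of all ncRNAs that overlap no gene was not counted, so the 6 are a description. Among these 6, lncRNA:CR32652 had 786 and 829.5 in testes, against 6.44 and 1.98 in larvae. All ncRNA genes together held 2.30% ± 0.11 of the testis RNA and 1.58% ± 0.14 of the larval RNA. The highest larval ncRNA was Uhg7, a host gene of small nucleolar RNAs on chr3L:1666288-1667307 (minus strand), with 0 and 0.251 in testes against 5803 and 6213 in larvae. It overlaps 6 annotated genes, and the library kit is not one that marks strand, so reads of overlapping genes cannot be separated.

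**Figure D3:**
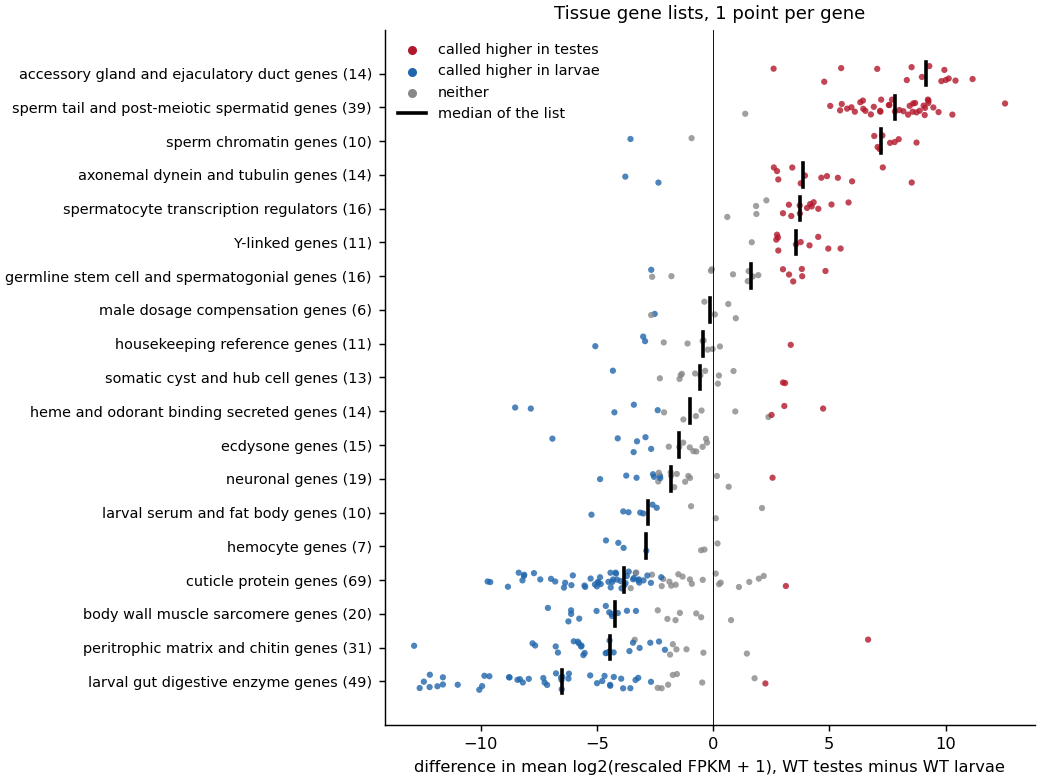
Difference in mean log2(rescaled FPKM + 1), WT testes minus WT larvae, for the members of 19 gene lists that passed the filter (number in brackets), with 1 point per gene and a black bar at the median of each list. Red points were called higher in testes and blue points higher in larvae; the medians run from 9.14 for accessory gland genes to -6.52 for larval gut enzymes.

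The larval programme was led by the gut and by protein synthesis. The 10 highest larval genes were 4 serine protease genes of the gut, 5 ribosomal protein genes and the muscle myosin light chain gene Mlc2. CG18180 (chr3L:9641013-9641913, plus strand), a trypsin-like gene, had 0.419 and 0.949 in testes, against 10809.5 and 18366 in larvae. Jon99Cii, one of the Jonah proteases of the midgut, had 1.26 and 1.81 in testes, against 11730.5 and 17142 in larvae. Of 49 gut enzyme genes that passed, 41 were called higher in larvae and 1 higher in testes, with a median log2 difference of -6.52. Their sum was 343 and 327 in testes, against 60099.5 and 92718 in larvae, or 7.64% ± 2.31 of the larval RNA. Among them the trypsin gene epsilonTry had 0 and 0.129 in testes, against 2215 and 5158 in larvae. The starch-digesting amylase genes Amy-p and Amy-d were also measured in testes. Amy-p had 107 and 101 in testes, against 1853 and 2766 in larvae. Amy-p and Amy-d are near-identical copies, and how the authors' counting divided such reads is not given in the sources used here. The gut list member called higher in testes was Mal-B1, a maltase, with 7.36 and 6.46 in testes against 0.585 and 0.750 in larvae.

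The food in the midgut is wrapped in a peritrophic matrix of chitin and chitin-binding proteins. Of 31 genes for this matrix and for chitin that passed, 23 were called higher in larvae and 1 higher in testes. Peritrophin-15a (chr2L:8395665-8396096, minus strand) was listed at 0 in both testis libraries and had 10394 and 5432 in larvae, the highest level of any gene absent from the testis values. The exception was Cht12, a gene of the chitinase family, with 283 and 277 in testes against 1.76 and 1.78 in larvae. Its replicates agreed closely in both tissues. The growth factor gene Idgf3, a chitinase relative without known chitinase activity, had 224 and 228 in testes against 86.2 and 78.0 in larvae and had no call.

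Cuticle protein genes, which the epidermis transcribes in waves around each moult, were numerous but varied widely between the larval libraries. Of 69 that passed, 48 were called higher in larvae, 1 was higher in testes and 20 had no call, with a median log2 difference of -3.82. Their sum was 173 and 173 in testes, against 8415 and 7442 in larvae. Cpr47Eg had 0.243 and 1.02 in testes, against 1368 and 1286 in larvae. In contrast, the larval cuticle gene Lcp3 had 0.249 and 0.125 in testes, against 53.6 and 778 in larvae, and TwdlK had 0.118 and 0 in testes, against 218 and 4.28 in larvae. Here the spread between larval replicates covers much of the range above the testis values. The member called higher in testes was Cpr92A, with 10.3 and 10.7 in testes against 0.130 and 0.531 in larvae.

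Sarcomere genes marked the body wall muscle. Of 20 that passed, 13 were called higher in larvae and 0 higher in testes, and the list summed to 1116 and 1050.0 in testes against 19676 and 27061 in larvae. Mlc2, the regulatory myosin light chain, had 65.4 and 58.4 in testes, against 7581 and 9994 in larvae. The myosin heavy chain gene Mhc had 38.6 and 32.8 in testes, against 415 and 1376 in larvae. Neither gene was at 0 in the testis libraries; the testis is enclosed in a muscle sheath, and the part of this sheath was not tested. The muscle actin gene Act87E had 474 and 478 in testes and 427 and 1092 in larvae, so its groups overlapped.

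Most cytoplasmic ribosomal protein genes were higher in larvae. Of 76 joined, 59 were called higher in larvae, 5 higher in testes and 12 neither, with a median log2 difference of -2.999, or a median of 7.99-fold higher in larvae. RpLP2, a stalk protein of the large subunit, had 1098 and 949 in testes, against 12873 and 12228 in larvae. RpL14 had 649.6 and 527 in testes, against 10282 and 9182 in larvae. RpL41, also of the large subunit, was high in both tissues, with 3249.7 and 3809 in testes against 15902 and 9464 in larvae, and had no call. RpL38 had 729.8 and 698 in testes and 765 and 616 in larvae. The 5 called higher in testes were RpS10a, RpL37-2, RpL10Aa, RpS19b and RpS28a, which are second copies of ribosomal protein genes. Genes with like in their name were left out of this class, among them RpL22-like, which was called higher in testes. In the FPKM as deposited, 42 of the 76 were higher in larvae and 6 higher in testes.

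Of 11 genes often used as references, 3 were called higher in larvae, 1 higher in testes and 7 neither, beside 14.1% and 25.5% called over all genes. The glycolytic gene Gapdh1 had 70.2 and 65.4 in testes, against 1945 and 2766 in larvae, and Pgk had 42.6 and 37.7 in testes against 296 and 369 in larvae. The polyubiquitin gene Ubi-p63E went the other way, with 783 and 690.0 in testes against 49.4 and 104 in larvae. The actin gene Act5C had 834 and 784 in testes and 1176 and 1046 in larvae, and alphaTub84B had 2325 and 2202 in testes and 1925 and 1781 in larvae. These last genes did not overlap between the groups but differed by less than the limit. RpL32, often used as a reference transcript, had 678 and 596 in testes but 5915 and 1312 in larvae. The larval libraries thus differed from each other by more than 4-fold in a gene used for normalisation, and RpL24 did the same, with 433 and 384 in testes against 4176 and 901 in larvae.

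Other larval tissues were visible at lower levels. The counts below stand beside 14.1% called higher in larvae and 25.5% higher in testes over all genes. Of 10 fat body and serum genes that passed, 7 were called higher in larvae and 0 higher in testes, with apolpp, the main lipid carrier of the blood, at 7.54 and 5.29 in testes against 119 and 95.5 in larvae. The larval storage protein gene Lsp1beta had 0.0351 and 0.0350 in testes, against 11.9 and 118 in larvae. Its relatives Lsp1gamma and Lsp2 were among the 5 of 15 joined members that did not reach the filter. Lsp2 had 2.55 and 0.901 in testes, against 0.145 and 0.0343 in larvae. Of 7 blood cell genes, 4 were higher in larvae and 0 higher in testes, with Col4a1, a collagen of basement membranes, at 4.09 and 4.08 in testes against 99.2 and 154 in larvae. Of 19 neuronal genes, 7 were higher in larvae and 1, nrv2, a sodium pump subunit, was higher in testes, with 198 and 201 there against 41.1 and 26.8 in larvae. elav, the standard marker of neurons, had 1.51 and 1.33 in testes, against 11.3 and 10.2 in larvae. Of 15 ecdysone genes, 6 were higher in larvae and 0 higher in testes. ImpL1, an ecdysone-inducible gene, had 0 and 0.135 in testes, against 465 and 34.8 in larvae. Of 14 odorant-binding and related secreted protein genes, 5 were called higher in larvae and 3 higher in testes, the testis count being near the share over all genes.

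A set of 62 genes (0.436% of the 14215) was listed at 0 in both testis libraries and had at least 5 in both larval libraries. After Peritrophin-15a the highest were CG7715, CG14237, CG30457 and CG43117, which lay between 795 and 1726 in the larval libraries. The 62 genes held 1.79% ± 0.56 of the larval RNA. A wider set of 771 genes called higher in larvae lay under 1 in both testis libraries. The count of 62 depends on which testis libraries are used: with testis replicate 2 alone it was 146, and with replicate 1 alone it was 151.

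Many general genes of the fly have a copy that was high in testes and low in larvae. A germline copy of a general gene, often made by retroposition, can take over in spermatocytes and spermatids. From a list of 85 such pairs, chosen with earlier results of these data known, both genes of 76 pairs were joined and those of 9 were not. For each library the log2 ratio of the paralogue to its partner was taken after adding 1 to both, and a pair was called switched when the lowest testis ratio exceeded the highest larval ratio by at least 2. By this rule 72 pairs had switched, 0 had moved the other way and 4 had no call. A change of the paralogue alone can meet the rule, and 71 of the 76 paralogues were themselves called higher in testes. Of the 65 different partners, only 21 were called higher in larvae, and 0 were called higher in testes. In 55 pairs the paralogue was above its partner in both testis libraries and below it in both larval libraries. The paralogue exceeded its partner in a larval library in 0 of the 76 pairs. The median of the switched paralogues was 186 in testes and 1.31 in larvae, while that of their partners was 78.0 in testes and 171 in larvae.

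**Figure D4:**
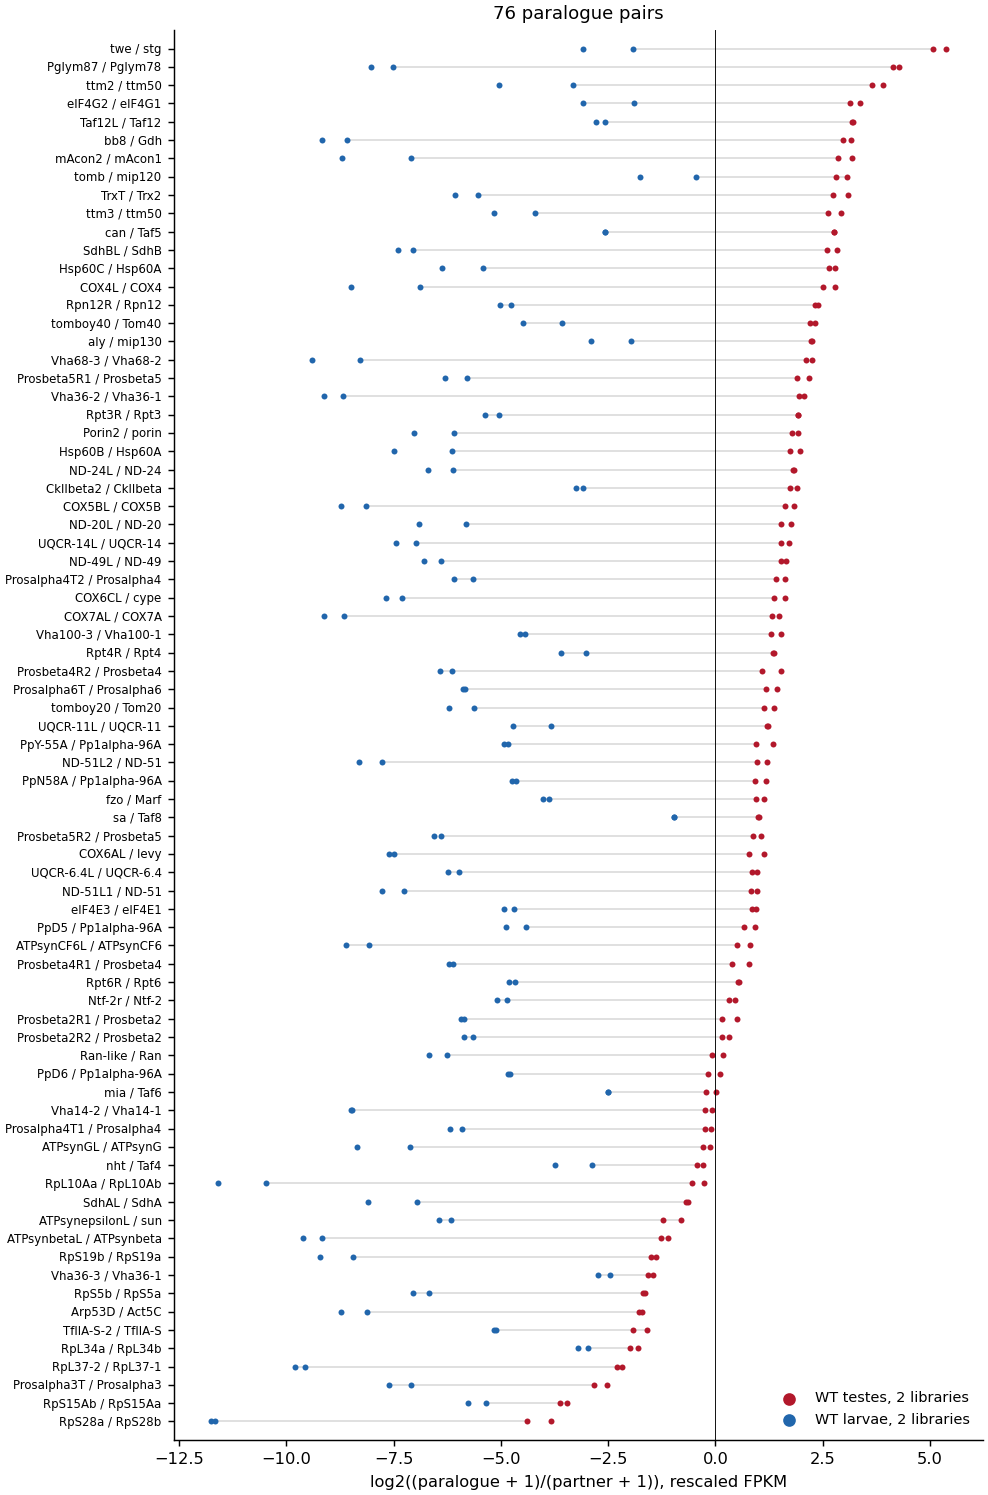
The log2 ratio of each paralogue to its partner, after 1 was added to both rescaled FPKM values, in 2 WT testis libraries (red) and 2 WT larval libraries (blue), for 76 pairs ordered by their mean testis ratio. Points right of 0 mean that the paralogue exceeds its partner; in 72 of the 76 pairs the lowest red point lies at least 2 above the highest blue point.

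Mitochondrial metabolism gave the most pairs. All 19 pairs for subunits of the respiratory chain and ATP synthase had switched by the ratio rule. In the pairs of ATPsynGL, ATPsynbetaL, ATPsynepsilonL and SdhAL, the general copy was still the higher one in both testis libraries. COX7AL, the testis copy of a cytochrome c oxidase subunit, had 605 and 626 in testes, against 1.73 and 0.649 in larvae. Its partner COX7A had 240.1 and 222 in testes, against 1100.5 and 917 in larvae. bb8, a glutamate dehydrogenase needed in spermatogenesis, had 669.6 and 678 in testes, against 0.503 and 1.03 in larvae. Its partner Gdh had 83.8 and 74.5 in testes, against 582 and 1168 in larvae. In glycolysis, Pglym87 had 630.0 and 632 in testes, against 1.63 and 1.59 in larvae, and Pglym78 had 35.02 and 31.8 in testes, against 483 and 669.6 in larvae. The Pglym pair gave the widest gap, 11.66 on the log2 scale. All 6 pairs for mitochondrial import and chaperonins had switched as well, with 0 partners called higher in larvae. Hsp60B, a testis copy of the mitochondrial chaperonin, had 883 and 934 in testes, against 1.62 and 0.404 in larvae, and its partner Hsp60A had 264 and 239 in testes, against 185 and 254 in larvae. fzo, the mitofusin that fuses mitochondria in spermatids, had 123 and 125 in testes, against 3.14 and 7.48 in larvae, while Marf, the general mitofusin, had 63.2 and 56.5 in testes and 65.6 and 123 in larvae.

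The proteasome, which degrades proteins tagged with ubiquitin, has testis copies of subunits of the core particle and the regulatory cap, and all 14 pairs had switched by the ratio rule. Prosbeta5R1 had 284 and 291 in testes, against 1.58 and 0.378 in larvae. Its partner Prosbeta5 had 75.5 and 63.7 in testes, against 141 and 109 in larvae. In 12 of the 14 pairs the paralogue was above its partner in both testis libraries, and 0 of the 14 had a partner called higher in larvae. In the Prosalpha3 pair the general subunit was the higher one in testes too: Prosalpha3T had 41.8 and 46.7 in testes, against 0.0995 and 0.143 in larvae, and Prosalpha3 had 304 and 275 in testes, against 212 and 155 in larvae.

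Translation had its own set. eIF4E3, a cap-binding protein of the testis, had 424 and 417 in testes, against 5.14 and 3.57 in larvae. eIF4E1, the general form, had 234 and 217 in testes and 159 and 137 in larvae, so both forms were present in testes. Of 7 ribosomal protein pairs, 5 had switched, although the general copy remained the higher one in testes in every pair. RpL10Aa had 387 and 409 in testes, against 1.56 and 0.217 in larvae, and its partner RpL10Ab had 563 and 496 in testes, against 3624 and 3749.9 in larvae. Among the TFIID pairs 4 of 5 had switched. The exception, sa and Taf8, missed the limit with a gap of 1.95: sa had 40.5 and 37.6 in testes against 2.97 and 2.82 in larvae, and Taf8 had 19.6 and 18.5 in testes against 6.81 and 6.44 in larvae. In the cell cycle, twe, the Cdc25 phosphatase of meiosis, had 92.9 and 89.7 in testes, against 1.95 and 1.48 in larvae, while stg, the Cdc25 of mitosis, had 1.78 and 1.19 in testes, against 10.1 and 19.99 in larvae.

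All 4 pairs for protein phosphatase 1 had switched, and all 4 share the partner Pp1alpha-96A, which had 46.7 and 38.1 in testes and 31.99 and 29.2 in larvae. PpY-55A, a phosphatase gene of the testis, had 90.6 and 97.3 in testes, against 0.150 and 0 in larvae. Of 5 proton pump pairs, 4 had switched.

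The other 3 pairs without a call were Vha36-3 with Vha36-1, RpS15Ab with RpS15Aa and RpL34a with RpL34b. Of these paralogues Vha36-3 and RpL34a were themselves called higher in larvae. Vha36-3, a subunit of the proton pump that acidifies organelles, had 17.5 and 16.9 in testes, against 88.7 and 118 in larvae. Its sister copy Vha36-2 had 211 and 204 in testes, against 0.454 and 0.164 in larvae. In 3 further pairs, the cytochrome c, beta-tubulin and RpS10 pairs, a gene could be matched only by its name, and this matching was chosen after the data were seen. All 3 had switched. With these genes added to the scaling, the beta-tubulin betaTub56D had 213 and 176 in testes, against 1222 and 1192 in larvae, and betaTub85D had 2199.96 and 2238 in testes, against 6.28 and 3.66 in larvae. The somatic cytochrome c gene Cyt-c-p had 67.6 and 63.5 in testes, against 514 and 524 in larvae, and its germline copy Cyt-c-d had 1114 and 1168 in testes, against 3.82 and 3.72 in larvae.

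The switched paralogues were set beside their partners in position and structure. Of 72, 29 had no intron in any annotated transcript, against 4 of their 62 partners. In 24 switched pairs, with 21 different partners, the partner lies on the X, and in all 24 of these the paralogue does not. In the 48 pairs whose partner is not X-linked, 4 paralogues lie on the X. The pairs were picked for being known duplicates, so these counts describe the list.

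Intron content also differed among all genes. Of 2571 protein-coding genes called higher in testes, 28.0% had no intron (95% Wilson interval 26.3% to 29.8%). The share was 15.7% (14.0% to 17.5%) of the 1626 called higher in larvae and 8.62% (7.98% to 9.31%) of the 6809 with neither call. The longest transcript had a median of 1362 bases in genes higher in testes, 1387.5 bases in genes higher in larvae and 2103 bases in the rest. Of the testis genes 63.1% had only a CG number, against 45.9% of the larval genes and 34.97% of the rest. The intervals cover sampling of genes only.

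On the X, 404 of 1896 genes (21.3%) were called higher in testes, against 2674 of 10202 (26.2%) on the 4 large autosomal arms. The share called higher in larvae was 14.6% on the X and 14.0% on the arms. The median log2 difference of X-linked genes lay 0.52 below that of autosomal genes, and between 0.46 and 0.58 below it for each pair of a testis with a larval library. Among genes at 10 or more in all 4 libraries, the median difference was -0.37 for 508 X-linked genes and -0.01 for 2810 autosomal genes. X-linked genes held 8.405% ± 0.19 of the testis RNA and 13.1% ± 0.14 of the larval RNA. Arm 2L had the largest share of testis calls among the autosomal arms, 31.9%, and chromosome 4 the smallest of any chromosome, 7 of 82 (8.54%). Of 6 genes of male dosage compensation, which acts on the X in somatic cells, 1 was called higher in larvae, 0 higher in testes and 5 neither. The larval count is near the 14.1% called higher in larvae over all genes. The gene called was roX2, one of the RNAs that coat the X. roX2 had 4.50 and 3.12 in testes, against 26.2 and 26.4 in larvae. roX1 had 22.4 and 23.1 in testes, but 42.9 and 521 in larvae, so its larval libraries differed more than 4-fold and it had no call.

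**Figure D5:**
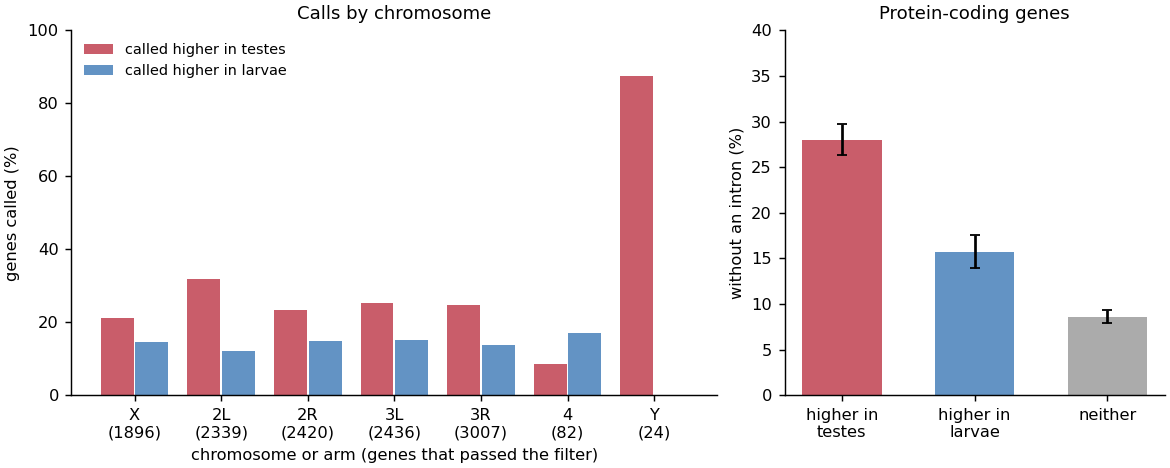
Left, the share of genes (%) called higher in WT testes (red) and in WT larvae (blue) on each chromosome or arm, with the number of genes that passed in brackets; the Y stands at 87.5% and 0%. Right, the share of protein-coding genes without an intron (%) among genes higher in testes, higher in larvae and neither, with 95% Wilson intervals.

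Neighbouring genes often shared a call. The next analysed gene along the chromosome was also called higher in testes for 1218 of 3092 testis genes (39.4%), beside 25.5% of all genes. It was also called higher in larvae for 426 of 1710 larval genes (24.9%), beside 14.1% of all. Genes outside the analysis were skipped, so neighbours and runs are not always adjacent on the chromosome. There were 43 runs of 6 or more testis genes in a row among analysed genes, and 10 such runs of larval genes. The longest, at chr2L:21896666-22110449, held 19 testis genes, among them ttm3, tplus3a and tplus3b. The longest larval runs had 10 genes, and one of them, at chr2R:11336840-11357537, is the trypsin cluster that includes betaTry, epsilonTry and iotaTry. Overlapping genes may share reads, and genes that overlap another made up 44.9% of the protein-coding testis genes and 40.3% of the larval genes. Among the 6297 genes that passed and overlap no other gene, 26.6% were called higher in testes and 15.6% higher in larvae.

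moi, the only gene of the mutated locus analysed here, had no call. It shares its transcript with tgs1 and had 14.7 and 15.8 in testes and 11.7 and 16.9 in larvae, so that the groups overlapped. The testis donors carry the tgs1hypo alleles, in which the paper found lowered moi RNA by RT-PCR, and their rescue construct holds tgs1 only. In the larvae the reading frame of moi is intact. What part of the moi levels comes from these alleles was not tested. In the FPKM as deposited moi had 10.1 and 11.4 in testes and 4.64 and 7.42 in larvae, where the groups did not overlap. tgs1 itself was not analysed here.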

How the data were processed

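The deposited FPKM values were made by the authors, who mapped reads with HISAT2 to FlyBase release dmel_r6.16; the tool behind the FPKM is not given in the sources used here. No counts are given, so the depth of a value is unknown, and replicates (2 per tissue) set its precision. The testis and larval tables were normalised separately and give many genes different limits: 60.9% of shared genes have the same locus in both. Positions, introns and names come from BDGP6.54 (Ensembl 115), in which 99.3% of the genes were found.

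Genes were joined by FlyBase identifier, rescaled and called as described in the report, with a pseudocount of 1, a minimum mean of 1 and a limit of 2 (log2), using scipy 1.17.1 and numpy 2.4.6 under Python 3.11.15, and pandas 2.3.3. No test was run between tables. The rule was tested on simulated data. Named genes were the 10 highest in each tissue, the 10 largest differences and the 5 highest genes at 0 in the other tissue, in each direction, members of 20 lists and of the paralogue list, and moi; a few more stand beside a count. The gene Pzl was dropped from a list as entered by mistake. Members and lists were chosen with earlier results of these data known. The tgs1KO larvae served only as an alternative reference, and the tgs1hypo testes were not compared.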

Additional observations from a re-analysis of the deposited data

How the results depend on the processing

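No paired analysis was possible because the results come from no test and testis and larval replicate numbers are only names. Each setting changed 1 choice and was run for the results that it bears on. In the FPKM as deposited, 1015 genes were higher in larvae, 41 genes were at 0 in testes and 25.6% of protein-coding testis genes had no intron. With a limit of log2 1, 3216 genes were higher in larvae and the share without intron was 23.3%, and with a limit of log2 3 these were 924 genes and 32.4%. Without the filter on low values the X minus autosome median was -0.34. With tgs1KO larvae in place of WT larvae, the 100 highest larval genes held 46.3%. Among genes that overlap no other gene, 1672 were higher in testes, 985 higher in larvae and 130 at 0 in larvae, the 100 highest genes held 44.6% in testes and 60.5% in larvae, and the X minus autosome median was -0.43; fewer genes enter there. Counting levels under 0.1 as 0 gave 126 genes at 0 in testes.

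Leaving out 1 library in turn gave 3193 to 3291 genes higher in testes, 1787 to 2138 higher in larvae, 233 to 477 at 0 in larvae and 66 to 151 at 0 in testes. The share of the 100 highest larval genes lay between 49.5% and 50.6% and the X minus autosome median between -0.60 and -0.47. The highest count at 0 in larvae was without larval replicate 1, and the highest at 0 in testes without testis replicate 2. Of 286 named genes with a call, 0 reversed under a setting they were run under. Of these, 200 were run under all 17 settings, and 148 of the 200 kept their call under all 17. The other causes were not tested. Depth is unknown, so a level of 0 sets no upper limit.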
